A study of Mus musculus with 12 samples.

Results

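The genes described here are 38 mouse genes of DNA break repair and of the checkpoints that hold the cell cycle while DNA is damaged. They were chosen by name, from lists of homologous recombination, Fanconi anemia, end joining and checkpoint genes. All 38 were among the 13886 genes of the matrix. They gave 74619 unique molecular identifiers (UMIs, counted RNA molecules), which was 0.144% of the UMIs of all genes.

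The study sequenced RNA from the 5' end of single B cells and plasma cells of draining lymph nodes, sorted as live, IgD-negative and eYFP-positive. The mice had been immunised with NP-KLH in Sigma Adjuvant System. They were given tamoxifen by gavage 5 days before the cells were taken, at day 16 of the primary response. All groups described here share this treatment, and the matrix holds no unimmunised or untreated mouse. The cells came from 3 mice, told apart by barcoded anti-CD45 antibodies. The sources used here do not give the strain, the age, the Cre driver or the reporter allele. The 6000 cells carried the submitters' annotation into 6 states. DZ, the dark zone in which germinal center B cells divide, held 3040 cells. LZ, the light zone in which they are selected, held 2213, and LZtoDZ, the state between them, held 165. The precursors of memory cells, preMem, held 396 cells, the plasma cell precursors, prePC, held 49, and the plasma cells, PC, held 137. Each cell also carried a phase of G1, S or G2M.

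Mice 1, 2 and 3 gave 1491, 2079 and 2430 cells with 12669908, 18664942 and 20638376 UMIs. Values for the mice are given below in this order. The median UMI count per cell ran from 4119 in preMem to 24018 in PC. The annotated states carried their markers. Cd83, a light zone surface protein, stood at 427 ± 48.8 CPM (UMI counts scaled to a common library total, mean ± SD, n = 3 mice) in LZ and at 87.0 ± 1.71 in DZ. Cxcr4, the dark zone chemokine receptor, stood at 31.2 ± 3.14 in LZ and at 72.8 ± 6.57 in DZ. Prdm1, the plasma cell transcription factor, stood at 48.5 ± 2.75 CPM in PC and at 1.85 or less in DZ, LZ, LZtoDZ and preMem. The prePC cells were also high in Klf2, at 591 ± 206 CPM against 655 ± 44.0 in preMem. Myeloid markers reached 355 CPM in the prePC cells of mouse 1, with 74 UMIs and 1 cell holding 2 or more of them, and their part in the prePC values was not tested. Plasma cells and other cells were captured in separate wells. Of 137 PC cells, 117 carried the second of the file's barcode series, against 0 of 3040 DZ and 0 of 2213 LZ cells, and no barcode sequence occurred in both series. No label ties a barcode series to a capture, and 20 PC cells carried the first series. A difference between PC and germinal center cells and a difference between captures or between barcode series cannot be told apart.

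A double-strand break can be mended along an intact copy of the sequence, by homologous recombination, or by joining the ends directly. Recombination uses the sister chromatid, so it works after replication, and the genes of its core are known targets of the E2F factors that open S phase. End joining needs no template and works in every phase. The kinases Atm and Atr sense the damage and act through Chek2 and Chek1 to hold the cycle, and the Fanconi anemia proteins clear crosslinks ahead of replication forks. In germinal center B cells, breaks arise from rapid replication and from the deamination of immunoglobulin genes, and end joining completes class switching.

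Promoter windows of 300 bases, from 250 before to 50 after the start site, were matched for 31 of the 38 genes (RefSeq, GRCm38.p6). Without an entry were Fancd2, Rad50, Nbn, Rif1, Rad54b, Prkdc and Xrcc2. The windows were searched on both strands for E2F-type motifs, spelled TTTCCCGC, TTTCGCGC, TTTGCCGC, TTTGGCGC or GGCGGGAA. The last was added after the sequences had been seen, and it can overlap the reverse of TTTCCCGC. At least 1 motif stood in a window of 11 of the 31 genes, or 35.5%, and of 4.46% of the 27025 genes of the whole table. Without the added motif, which is the one in the Chek1 and Rad51ap1 windows, the counts were 8 of 31, or 25.8%, and 2.60% of all genes. Among the 14 matched genes that were at least 1 log2 unit higher in S than in G1, 8 held one, and among the other 17, 3 did. Without the added motif these counts were 6 and 2. No motif stood in the windows of Rad54l, Xrcc3, Brca1, Fanci, Palb2 and Blm, which rose by at least 1 log2 unit too. Of the other genes, Fancm, Mdc1 and Xrcc6 held one. The windows of these genes are not shown, so the windows below do not stand for all. This is a description of these letters, not of binding. Shown 5' to 3' on the gene's strand, with the motif in capitals, are 4 windows of genes whose levels followed S phase and 2 windows, of Xrcc5 and Xrcc4, of genes whose levels did not pass the test.
Chek1: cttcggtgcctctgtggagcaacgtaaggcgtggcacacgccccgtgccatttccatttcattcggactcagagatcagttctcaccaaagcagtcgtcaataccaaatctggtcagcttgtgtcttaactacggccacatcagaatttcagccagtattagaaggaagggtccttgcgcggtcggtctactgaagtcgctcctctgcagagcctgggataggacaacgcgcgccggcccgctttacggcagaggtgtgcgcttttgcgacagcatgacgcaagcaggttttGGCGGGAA
Rad51ap1: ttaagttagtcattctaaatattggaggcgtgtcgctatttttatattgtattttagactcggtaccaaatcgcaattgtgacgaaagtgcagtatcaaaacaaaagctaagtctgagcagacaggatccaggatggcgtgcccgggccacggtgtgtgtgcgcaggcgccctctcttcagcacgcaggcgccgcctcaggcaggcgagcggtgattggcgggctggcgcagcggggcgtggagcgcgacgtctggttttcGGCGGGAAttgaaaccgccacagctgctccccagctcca
Brca2: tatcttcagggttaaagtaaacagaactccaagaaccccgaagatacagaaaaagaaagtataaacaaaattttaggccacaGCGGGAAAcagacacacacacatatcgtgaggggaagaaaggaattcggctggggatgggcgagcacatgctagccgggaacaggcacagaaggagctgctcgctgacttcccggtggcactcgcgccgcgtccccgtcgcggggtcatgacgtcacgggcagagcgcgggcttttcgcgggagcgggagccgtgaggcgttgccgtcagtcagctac
Bard1: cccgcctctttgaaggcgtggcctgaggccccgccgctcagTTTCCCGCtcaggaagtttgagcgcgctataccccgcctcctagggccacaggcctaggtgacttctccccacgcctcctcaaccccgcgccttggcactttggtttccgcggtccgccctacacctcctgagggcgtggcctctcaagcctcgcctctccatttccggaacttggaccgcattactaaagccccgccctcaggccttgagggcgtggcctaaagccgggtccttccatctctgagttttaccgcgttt
Xrcc5: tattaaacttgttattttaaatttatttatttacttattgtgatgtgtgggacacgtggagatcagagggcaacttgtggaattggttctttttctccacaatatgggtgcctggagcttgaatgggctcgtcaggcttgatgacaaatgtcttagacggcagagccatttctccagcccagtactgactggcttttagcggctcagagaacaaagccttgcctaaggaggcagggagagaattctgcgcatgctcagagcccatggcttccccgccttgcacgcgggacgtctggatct
Xrcc4: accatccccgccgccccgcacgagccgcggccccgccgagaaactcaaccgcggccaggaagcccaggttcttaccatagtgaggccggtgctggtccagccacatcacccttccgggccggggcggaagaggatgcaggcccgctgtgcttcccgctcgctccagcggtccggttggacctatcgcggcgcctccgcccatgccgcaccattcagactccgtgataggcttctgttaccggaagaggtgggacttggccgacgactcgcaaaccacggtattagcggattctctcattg
The Chek1 window lies on chromosome 9 from 36726609 to 36726908 on the minus strand, and its motif starts 42 bases after the start site. That of Rad51ap1, on chromosome 6 from 126939538 to 126939837 on the minus strand, starts 11 bases after it. The Brca2 window, on chromosome 5 from 150522371 to 150522670 on the plus strand, holds the motif on the reverse strand. In the Bard1 window, on chromosome 1 from 71102923 to 71103222 on the minus strand, it lies upstream of the start site. The windows of Xrcc5 (chromosome 1, 72307171 to 72307470, plus strand) and Xrcc4 (chromosome 13, 90089559 to 90089858, minus strand) held none of these letters.

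The summed level of the 38 genes followed the phase of the cells more than their zone. Over each state's cells it was 1310, 1348 and 1301 CPM in DZ, 1284, 1343 and 1358 in LZ, and 1557, 1463 and 1526 in LZtoDZ. It was 867, 883 and 883 CPM in preMem, 792, 914 and 623 in prePC, and 688, 691 and 832 in PC. DZ and LZ overlapped, LZtoDZ lay above both in every mouse, and preMem and PC lay below both. Within DZ it was 1171, 1190 and 1130 CPM in G1, 1790, 1838 and 1808 in S, and 1540, 1584 and 1556 in G2M. Within LZ it was 1143, 1193 and 1248 CPM in G1, 1805, 1811 and 1839 in S, and 1567, 1597 and 1649 in G2M. The phases did not overlap in either zone, and the zones overlapped in each phase. PC cells in G1 stood at 477, 538 and 613 CPM, below every G1 value of DZ and LZ, and PC cells in S at 1136, 1158 and 1268, from 24 cells in all. CPM over whole states and CPM over states split by phase were scaled separately and are not to be set against each other. The sum leans on Parp1, Trp53 and Xrcc1, with 16052, 9178 and 6372 UMIs. Between whole zones these went opposite ways without overlap between the mice, Xrcc1 higher in DZ and Parp1 and Trp53 lower. Equal sums in DZ and LZ therefore do not mean equal levels of each gene.

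**Figure D1:**
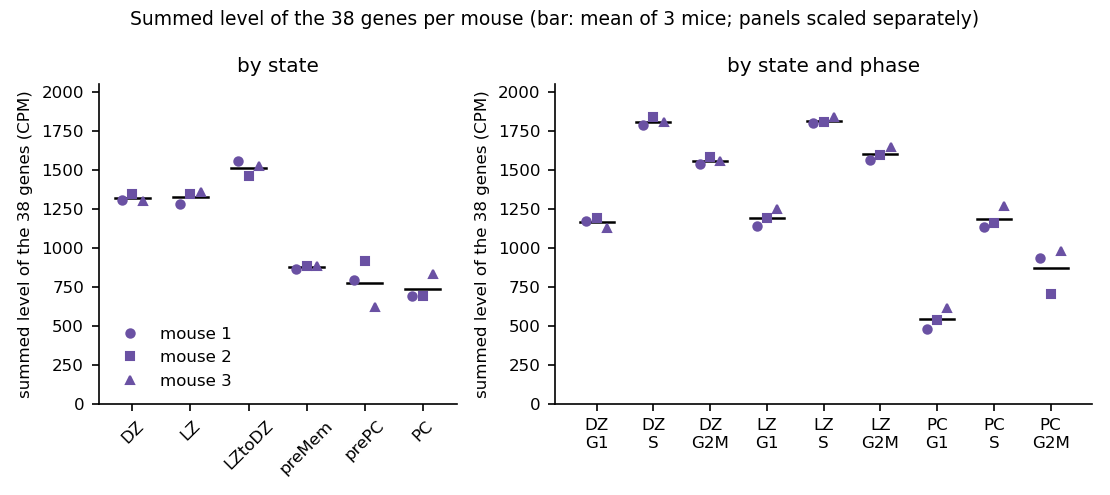
Summed level of the 38 genes in CPM, for each state (left) and for each phase of DZ, LZ and PC (right), with 1 symbol per mouse and a bar at the mean of 3 mice. S-phase cells of DZ and LZ lie between 1790 and 1839, above all G1 cells, and PC cells in G1 lie between 477 and 613. The panels were scaled separately.

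To compare cells at an equal UMI total, each was thinned to 2000 UMIs, which left out 14 shallower cells of DZ, 20 of LZ and 9 of preMem. In such cells the mean number of the 38 genes with a UMI was 2.57 ± 0.0305 (mean ± SD of 3 mice) in DZ and 2.47 ± 0.131 in LZ, where the mice overlapped. It was 3.02 ± 0.277 in LZtoDZ, 1.63 ± 0.0751 in preMem, 1.62 ± 0.0816 in prePC and 0.669 ± 0.167 in PC. The TMM scaling factor, which is low where a few genes take much of the total, averaged 0.623 in PC and 1.16 in DZ, so an equal total is not an equal depth for these genes in PC. Unthinned, the values were 8.25 in DZ, 6.79 in LZ, 14.9 in LZtoDZ, 3.39 in preMem, 5.72 in prePC and 6.79 in PC. Thinned to 1000 UMIs the value was 1.36 in DZ, 1.35 in LZ, 1.38 ± 0.221 in LZtoDZ, 0.892 in preMem, 0.575 in prePC and 0.476 ± 0.331 in PC, so LZtoDZ stood apart from DZ at 2000 UMIs and not at 1000. At 2000 UMIs the value was 3.24 in DZ cells in S, 1.92 in DZ cells in G1 and 0.410 in PC cells in G1.

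In S phase all of the recombination genes were higher than in G1, with the largest median change of any role, and 5 of the 8 end-joining genes tested did not pass the test. The comparison averages the difference from G1 in DZ and in LZ. Of the 37 genes that passed the filter on low counts, 28 were higher in S than in G1 and 0 were lower, where 22.1% of all 9161 genes tested were higher and 20.9% lower (edgeR quasi-likelihood test, adjusted p under 0.05). DESeq2 also called 0 lower, where it called 1997 of all genes lower. At an unadjusted p under 0.05, 30 were higher and 0 lower, where 4608 of the 9161 genes had such a p in either direction. Over the 37 genes the median log2 fold change was 0.93, and over all genes -0.05. Nhej1, an end-joining cofactor with 17 UMIs in all cells, could not be tested.

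All 11 recombination genes rose, with a median log2 fold change of 2.41. Rad51ap1, an accessory factor of recombination, stood at 8.16, 18.0 and 10.1 CPM in DZ cells in G1 and at 83.3, 97.1 and 87.5 in S. In LZ it went from 8.04, 11.3 and 9.85 CPM to 84.5, 85.6 and 94.2. The phases did not overlap in either zone, and the log2 fold change was 3.07 ± 0.11 (SE, adjusted p = 1.95e-16). Rad54l, a DNA motor protein of recombination, rose by 3.23 ± 0.17 (adjusted p = 1.85e-13), Rad54b, its relative, by 2.76 ± 0.21 (adjusted p = 6.79e-10) and Xrcc3, a recombination gene with 224 UMIs in all, by 2.87 ± 0.36 (adjusted p = 1.59e-06). Brca1, which directs breaks into recombination, stood at 8.16, 6.14 and 7.02 CPM in DZ cells in G1 and at 51.6, 53.9 and 44.6 in S. Its log2 fold change was 2.69 ± 0.12 (adjusted p = 9.05e-15), and its partner Bard1 rose by 1.98 ± 0.16. Brca2, a mediator of recombination, rose by 2.41 ± 0.17 (adjusted p = 3.72e-11) and Palb2, which links Brca1 to Brca2, by 1.73 ± 0.26. Rad51c and Xrcc2, which act together in recombination, rose by 1.74 ± 0.22 and 1.61 ± 0.29, and the helicase Blm by 1.14 ± 0.10.

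Of the 6 Fanconi genes, 5 rose. Fancd2 and Fanci form the clamp that the pathway switches on. Fancd2 stood at 1.88, 3.07 and 3.90 CPM in DZ cells in G1 and at 15.0, 14.7 and 17.2 in S, with a log2 fold change of 2.66 ± 0.24 (adjusted p = 1.44e-08). Fanci rose by 2.52 ± 0.25 and Fancg, part of the core complex, by 1.21 ± 0.16, while the ligase Fancl and the translocase Fancm rose by 0.55 ± 0.09 and 0.69 ± 0.09. Fanca, another core subunit, had a log2 fold change of 0.05 and did not pass the test.

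All 4 break-sensing genes rose by less than 1 log2 unit. Rad50, Mre11a and Nbn make up the complex that binds broken ends, and their log2 fold changes were 0.78 ± 0.07, 0.46 ± 0.11 and 0.93 ± 0.11. Mdc1, which gathers repair factors on chromatin, rose by 0.82 ± 0.16.

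Of the 6 checkpoint genes, 3 rose, and they were the kinases Chek1 and Chek2 and the activator Topbp1. Chek1, the effector kinase of Atr, stood at 10.0, 9.22 and 5.46 CPM in DZ cells in G1 and at 47.9, 55.1 and 48.5 in S. In LZ the values were 6.18, 5.64 and 8.86 CPM in G1 and 45.6, 48.6 and 45.5 in S. The log2 fold change was 2.73 ± 0.13 (adjusted p = 8.09e-14). Chek2, the effector kinase of Atm, rose by 1.09 ± 0.14 and Topbp1, which activates Atr, by 1.19 ± 0.08. The apical kinases Atm and Atr had log2 fold changes of 0.36 ± 0.16 (adjusted p = 0.0669) and 0.39 ± 0.21 (adjusted p = 0.139). Trp53, the p53 gene, stood at 179, 183 and 188 CPM in DZ cells in G1 and at 193, 183 and 194 in S, and its log2 fold change of 0.14 ± 0.06 did not pass the test (adjusted p = 0.0594).

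Of the 8 end-joining genes tested, 3 rose. They were Xrcc6, the Ku70 subunit that binds ends, with 0.81 ± 0.11 (adjusted p = 2.37e-06), Rif1, which protects ends from resection, with 1.06 ± 0.10, and Prkdc, the kinase that Ku recruits, with 0.69 ± 0.13 (adjusted p = 0.000191). Xrcc5, the Ku80 partner of Xrcc6, stood at 16.3, 12.7 and 14.4 CPM in DZ cells in G1 and at 15.8, 20.5 and 16.3 in S, values that overlap, and its log2 fold change was 0.12 ± 0.14. The interval of 2 SE around it ran from -0.15 to 0.39. The ligase Lig4 and its partner Xrcc4, the nuclease Dclre1c and the end-protection factor Trp53bp1 lay between -0.28 and 0.03 and did not pass the test. Xrcc1, the scaffold of single-strand break repair, rose by 0.31 ± 0.06. Parp1, which marks broken strands, had a log2 fold change of 0.16 ± 0.06 (adjusted p = 0.0353), a call that was lost without mouse 1, 2 or 3 (adjusted p from 0.065 to 0.19) and without the filter on low counts.

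**Figure D2:**
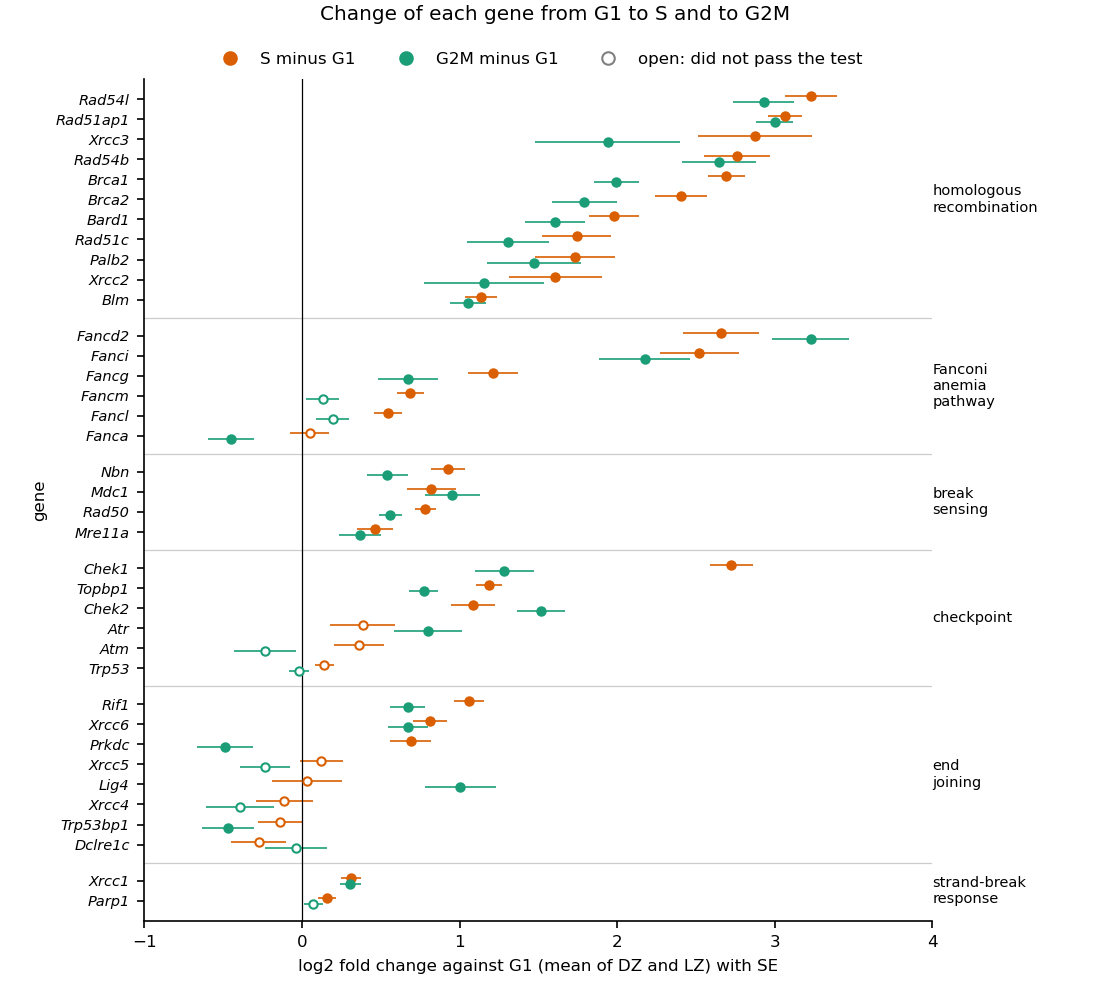
Log2 fold change of each of the 37 tested genes from G1 to S and from G1 to G2M, averaged over DZ and LZ, with its standard error, ordered by role. Filled points passed the test and open points did not. All 11 recombination genes lie to the right of 0 in both phases, and 5 of the 8 end-joining genes have open points for S.

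The submitters called the phases from the same transcriptomes, and Rad51ap1 and Blm are in the S-phase list often used with Seurat. Phases were therefore called again from lists that hold none of the 38 genes, which gave the same phase for 84.0% of cells. With these phases Rad51ap1 rose from G1 to S by 2.81 ± 0.08 and Blm by 1.06 ± 0.12. Parp1 no longer passed the test (adjusted p = 0.0789).

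In G2M the recombination genes were still high, Chek1 had come down from its S-phase level and Lig4 was raised. The G2M values of Lig4 lay above those of G1 and S without overlap in DZ, and overlapped both in LZ. Of the 37 genes tested, 26 were higher in G2M than in G1 and 3 lower, where 20.1% of all genes were higher and 21.4% lower. Their median log2 fold change was 0.77 over the 37 genes, against -0.05 over all genes. All 11 recombination genes were higher again, with Rad51ap1 at 3.0 ± 0.12 (adjusted p = 6.18e-16), Rad54l at 2.93 ± 0.19, Rad54b at 2.65 ± 0.23, Brca1 at 2.00 ± 0.14 and Brca2 at 1.79 ± 0.20. Fancd2 had the largest change of the 37, at 24.6, 20.9 and 21.5 CPM in DZ cells in G2M and a log2 fold change of 3.23 ± 0.24 (adjusted p = 5.59e-10). Fanci rose by 2.17 ± 0.29 (adjusted p = 2.73e-06). Chek2 rose by 1.52 ± 0.15, Chek1 by 1.28 ± 0.19 and Xrcc6 by 0.67 ± 0.12. Atr rose by 0.80 ± 0.22 (adjusted p = 0.00472, 0.083 without mouse 2). The 3 genes below G1 were Prkdc at -0.49 ± 0.18 (adjusted p = 0.0321), Trp53bp1 at -0.47 ± 0.16 (adjusted p = 0.0267) and Fanca at -0.45 ± 0.15 (adjusted p = 0.0164). All 3 calls were lost without mouse 2 and without mouse 3, and that of Prkdc also with the phases called again (adjusted p = 0.59). Xrcc5, Atm, Trp53 and Parp1 lay between -0.24 and 0.07 and did not pass the test.

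Directly against S, 3 genes were higher in G2M and 14 lower, where 11.1% of all genes were higher and 14.1% lower. Without mouse 2 these counts were 0 and 8, and without mouse 1 the count of lower genes was 9. Chek1 fell from 47.9, 55.1 and 48.5 CPM in DZ cells in S to 20.8, 18.9 and 16.0 in G2M, values that do not overlap. Its log2 fold change was -1.44 ± 0.12 (adjusted p = 4.33e-09). Prkdc stood at 18.7, 22.7 and 23.0 CPM in DZ cells in S and at 14.4, 13.2 and 11.8 in G2M, and in LZ at 30.7, 31.8 and 28.9 against 14.7, 9.05 and 8.68. It fell by 1.18 ± 0.16 (adjusted p = 6.41e-06). Brca1 changed by -0.70 ± 0.10 (adjusted p = 8.68e-06) and Brca2 by -0.61 ± 0.14 (adjusted p = 0.00242, 0.075 without mouse 2). Xrcc3 changed by -0.94 ± 0.29 (adjusted p = 0.0208, lost without mouse 1 or 2) and Atm by -0.60 ± 0.18 (adjusted p = 0.0177, lost without mouse 3). The 3 higher genes were Lig4 at 0.97 ± 0.23 (adjusted p = 0.00246), Fancd2 at 0.57 ± 0.17 (adjusted p = 0.0158) and Chek2 at 0.43 ± 0.13 (adjusted p = 0.014). Each of these 3 calls was lost without mouse 2, that of Fancd2 also without mouse 1 and that of Chek2 also without mouse 3.

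The highest phase of a gene was S in both zones for 24 of the 38 genes and G2M in both zones for 5, which were Fancd2, Lig4, Atr, Chek2 and Mdc1. It was G1 in both zones for Xrcc4, where the phases overlapped, and for Trp53bp1, where G1 overlapped S and lay above G2M. Within DZ, S lay above G1 without overlap between the mice for 30 genes and below it for 0. Within LZ the counts were 27 and 0. Neither the share of all genes without such overlap nor the share highest in each phase was computed. The counts of this paragraph therefore have no background beside them and are not read as a result about the set.

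**Figure D3:**
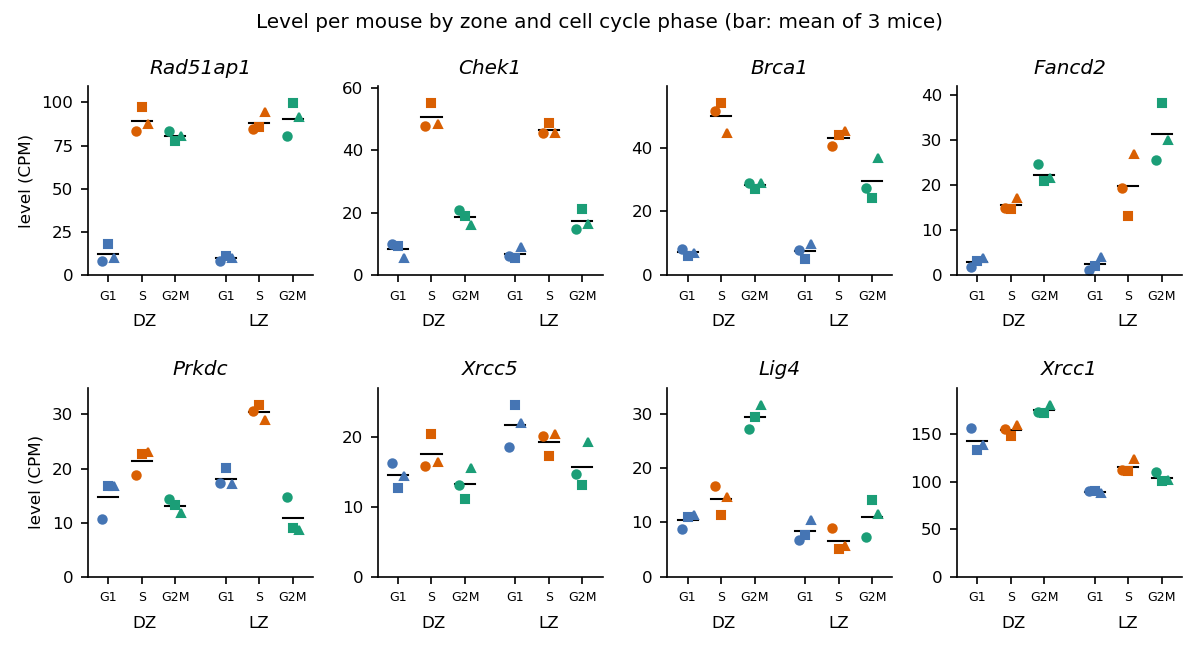
Level in CPM of 8 genes in G1, S and G2M cells of DZ and LZ, with 1 symbol per mouse and a bar at the mean. Rad51ap1 and Brca1 are lowest in G1, Chek1 peaks in S, Fancd2 is highest in G2M, and Lig4 is highest in DZ cells in G2M at 27.2 to 31.7.

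No gene of the set showed a phase response that passed the test of a difference between the zones. For S minus G1, 0 of 37 passed, where 4 of 9161 genes did, or 0.0437%. For G2M minus G1, 0 of 37 passed, where 28 of 9161 did, or 0.306%. At an unadjusted p under 0.05 the counts were 3 and 5 of the 37, where 552 and 985 of the 9161 genes had such a p. DESeq2 called 0 and 1 of the 37. Over all genes DESeq2 called 80 higher in DZ and 15 lower for S, and 150 higher and 76 lower for G2M. Lig4, whose level in G2M was 27.2, 29.3 and 31.7 CPM in DZ and 7.33, 14.1 and 11.6 in LZ, had a difference of responses of 1.06 ± 0.43 (adjusted p = 0.363). Trp53 had one of -0.41 ± 0.12 (adjusted p = 0.173), and it passed when immunoglobulin genes were left out. Its level in G2M lay below that in G1 in DZ and above it in LZ, in both zones without overlap between the mice. The 2 SE interval for Brca1 ran from -0.17 to 0.92 for S and from -0.49 to 0.69 for G2M.

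Lig4 and Xrcc1 were higher in DZ than in LZ cells, on whole states and at matched phase, and Fanca was lower. Of 35 genes tested on whole states, 3 were higher in DZ, or 8.57%, near the 11.6% of all 8402 genes. In the other direction, 1 was lower, or 2.86%, where 11.3% of all genes were. The count of lower genes was 8 without immunoglobulin genes, 4 with DESeq2 and 4 without the second barcode series. Over all genes the lower ones numbered 1418, 937 and 1203 in this order, against 953 in the main fit. DZ and LZ held 0 cells of the second series, so that setting changed only the sums of other states in the same fit. The median log2 fold change was 0.04 for the 35 genes and 0.01 for all genes. Xrcc2, Xrcc3 and Nhej1 were too low to test. Lig4, the ligase that seals joined ends, stood at 15.8, 15.8 and 17.6 CPM in DZ and at 6.78, 6.90 and 7.60 in LZ. The mice did not overlap, and the log2 fold change was 1.25 ± 0.21 (adjusted p = 0.000886). Xrcc1 stood at 138, 132 and 138 CPM in DZ and at 89.3, 89.0 and 92.0 in LZ, with a log2 fold change of 0.63 ± 0.08 (adjusted p = 9.51e-05). Fanca was lower in DZ, at 10.7, 11.5 and 13.0 CPM against 19.8, 20.2 and 17.6, with a log2 fold change of -0.65 ± 0.11 (adjusted p = 0.00137). Rad51ap1 was higher by 0.27 ± 0.07 (adjusted p = 0.0151), a call that was lost without mouse 1 (0.089), without mouse 3 (0.097) and without the mouse as a block (0.053).

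The zones also differed in their phases. G2M made up 32.0% to 34.0% of DZ cells and 9.69% to 13.7% of LZ cells, and S 29.7% to 32.5% and 32.1% to 35.4%. Within matched phases, 3 of 37 genes were higher in DZ and 9 lower, where 14.3% of all genes were higher and 12.0% lower. Without mouse 2 the lower genes numbered 2, and without mouse 3 they numbered 3. Lig4 kept a log2 fold change of 0.93 ± 0.17 (adjusted p = 0.000271) and Xrcc1 of 0.60 ± 0.05 (adjusted p = 8.16e-09). By phase, the mouse values of Lig4 were higher in DZ without overlap in S and in G2M, and the zones overlapped in G1. Those of Xrcc1 did not overlap in any phase. Xrcc1 stood at 157, 133 and 139 CPM in DZ cells in G1 and at 90.3, 90.8 and 88.0 in LZ cells in G1. Rad51ap1 had a matched-phase value of 0.04 and did not pass the test. Fancm was higher by 0.27 ± 0.08 (adjusted p = 0.0143, lost without mouse 2 or 3).

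Of the genes lower at matched phase, Fanca, Atr and Trp53 had the lowest adjusted p. Atr stood at 1.88, 3.51 and 4.29 CPM in DZ cells in G1 and at 8.66, 8.72 and 10.2 in LZ cells in G1. The log2 fold change over all phases was -0.71 ± 0.17 (adjusted p = 0.00293, 0.095 without mouse 2), and Fanca changed by -0.50 ± 0.12 (adjusted p = 0.00241, 0.078 without mouse 2). Trp53 was lower by a small amount, -0.21 ± 0.05 (adjusted p = 0.0035), a call made under each of the 11 alternatives that were run. By phase, its mouse values were lower in DZ without overlap in G2M only, and the zones overlapped in G1 and in S. Xrcc3 (-0.93, adjusted p = 0.0446), Xrcc5 (-0.34, adjusted p = 0.0478), Chek2 (-0.33, adjusted p = 0.0387), Blm (-0.32, adjusted p = 0.00778), Nbn (-0.29, adjusted p = 0.0292) and Parp1 (-0.14, adjusted p = 0.033) were the others. Each of these 6 calls was lost without mouse 3, those of Xrcc3, Xrcc5 and Parp1 also without mouse 1, and those of Xrcc3, Xrcc5, Chek2, Blm and Nbn also without mouse 2. Brca1, Brca2, Chek1, Fancd2, Prkdc, Atm and Xrcc6 lay between -0.24 and 0.08 and did not pass the test.

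LZtoDZ cells, annotated as moving from the light to the dark zone, had higher levels of Trp53, Chek1, Rad51ap1, the Ku genes and the end-binding complex than LZ cells. Of 35 genes tested, 11 were higher, or 31.4%, a share near the 26.7% of all genes that were higher. Lower were 1 gene, or 2.86%, and 22.4% of all genes. Without mouse 3 the higher genes numbered 7, and without each mouse the lower ones numbered 0. Over the 35 genes the median log2 fold change was 0.25, and over all genes -0.00. Between 57.1% and 74.4% of LZtoDZ cells were in S, against 32.1% to 35.4% of LZ cells, and the summed S-phase list was 4381 CPM against 3096. The part of phase in the difference was not tested. Trp53 stood at 238, 259 and 256 CPM against 174, 175 and 172 in LZ, with no overlap and a log2 fold change of 0.59 ± 0.13 (adjusted p = 0.00265). In S-phase cells alone its level was 266, 288 and 279 CPM in LZtoDZ and 204, 215 and 193 in LZ, also without overlap. Chek1 stood at 42.2, 29.1 and 39.8 CPM against 19.8, 23.5 and 21.9, a log2 fold change of 0.80 ± 0.18 (adjusted p = 0.00267). In S-phase cells its levels overlapped, at 56.7, 35.8 and 60.2 against 45.6, 48.6 and 45.5 CPM.

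The remaining genes raised in LZtoDZ came from recombination, end joining, break sensing and, with Fancd2, the Fanconi pathway. Rad51ap1 rose by 0.68 ± 0.10 (adjusted p = 7.67e-05) and Xrcc6 by 0.65 ± 0.17 (adjusted p = 0.00663). Nbn rose by 0.58 ± 0.12 and Mre11a by 0.57 ± 0.14. Xrcc5 rose by 0.78 ± 0.21 (adjusted p = 0.00818), with 42.2 CPM in mouse 1 and 22.2 and 25.9 in the others, and without mouse 1 the call was lost (adjusted p = 0.1). Rad54l (0.64 ± 0.17) lost its call without mouse 3, Fancd2 (0.65 ± 0.23) without mouse 2 or 3 and Rif1 (0.42 ± 0.14) without mouse 1 or 3. Rad50 (0.25 ± 0.09) lost it without mouse 1, without mouse 2 and without mouse 3, and also with DESeq2. Fanca was the 1 lower gene, at 10.6, 13.8 and 10.7 CPM and -0.64 ± 0.19 (adjusted p = 0.0132), and its call was lost without mouse 1, 2 or 3. Lig4 stood at 5.86, 4.59 and 20.2 CPM, a level that was high in mouse 3 alone, and did not pass the test.

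In preMem cells many of the genes that were high in S phase were low. Against the mean of DZ and LZ, 15 of 35 genes were lower and 1 higher, where 18.9% of all genes were lower and 19.9% higher. Their median log2 fold change was -0.68 over the 35 genes, against 0.03 over all genes. Chek1 stood at 4.18, 4.07 and 2.84 CPM, below every DZ and LZ value, and its log2 fold change was -2.61 ± 0.43 (adjusted p = 0.000322). Rad51ap1 stood at 18.8, 20.4 and 17.1 CPM and changed by -1.49 ± 0.17 (adjusted p = 1.64e-05). Rad54l changed by -1.99 ± 0.34 (adjusted p = 0.00047), Brca2 by -1.41 ± 0.33 (adjusted p = 0.00415) and Brca1 by -1.22 ± 0.25 (adjusted p = 0.00175). Fancd2 changed by -1.29 ± 0.42 (adjusted p = 0.0288, lost without mouse 2 or 3). Fanci had 2 UMIs in preMem against 389 in DZ and LZ, which is a level 7.58-fold lower with a 95% exact binomial interval from 2.08 to 62.8 that covers counting error only. Parp1 stood at 178, 183 and 181 CPM against 264 to 290 in DZ and 301 to 326 in LZ, and fell by 0.68 ± 0.08 on the log2 scale (adjusted p = 2.61e-05). Fancm, Topbp1, Xrcc1, Blm, Fancl, Rif1 and Rad50 changed by -0.96 to -0.31. The calls of Blm, Rif1 and Rad50 were lost without some mice (mice 2 and 3, mice 1 and 3, and each of the 3). Atr was the 1 higher gene, at 4.18, 9.51 and 21.3 CPM, with 0.94 ± 0.33 (adjusted p = 0.0397). Without mouse 3 it was 0.24 (adjusted p = 0.75), and without mouse 2 the call was also lost.

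Between 91.3% and 95.1% of preMem cells were in G1, and their summed S-phase list stood at 1082 CPM against 3229 in DZ and 3096 in LZ. Against LZ cells in G1, 2 of 37 genes were lower and 1 higher, where 9.65% of all genes were lower and 10.5% higher, shares that were not above the background. The summed level of the 38 genes in preMem cells in G1 was 972, 910 and 988 CPM, below every G1 value of DZ and LZ. This sum includes Parp1, the gene of the set with the most UMIs, whose own fall is given below. Residual cycle RNA also differed among cells called G1. The summed S-phase list stood at 981 to 1166 CPM in preMem and at 1380 to 1593 in DZ and LZ, and its part was not tested. Thinned to 2000 UMIs, the mean number of the 38 genes with a UMI was 1.63 ± 0.113 in preMem and 1.99 ± 0.114 in LZ among cells in G1, without overlap between the mice. The median log2 fold change was -0.17 for the 37 genes and 0.01 for all genes. Parp1 stood at 194, 203 and 208 CPM against 346, 345 and 366, with no overlap and a log2 fold change of -0.76 ± 0.09 (adjusted p = 1.25e-06). Xrcc1 changed by -0.40 ± 0.14 (adjusted p = 0.0425), a call that was lost without mouse 1, 2 or 3 and with DESeq2. Mdc1 rose by 1.13 ± 0.31 (adjusted p = 0.00994), at 17.6, 20.3 and 30.9 CPM against 12.4, 9.75 and 11.2, and lost the call without mouse 2 (0.051) or mouse 3 (0.19). Chek1 had a difference of -1.13 ± 0.58 (adjusted p = 0.198) and Brca1 one of 0.31 ± 0.36, with a 2 SE interval from -0.42 to 1.03.

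Plasma cells had lower levels of Parp1, Xrcc1, Trp53, Nbn and Trp53bp1 than germinal center cells, while Brca1 and Xrcc6 did not pass the test. Against the mean of DZ and LZ, 17 of 35 genes were lower and 1 higher, where 29.2% of all genes were lower and 27.9% higher. Over the 35 genes the median log2 fold change was -0.77, and over all genes -0.08. Parp1 stood at 132, 111 and 126 CPM, below the lowest germinal center value of 264, and changed by -1.23 ± 0.09 (adjusted p = 6.04e-08). Xrcc1, at 21.5, 36.9 and 39.6 CPM, changed by -1.75 ± 0.14 (adjusted p = 2.42e-07). Trp53, at 64.6, 77.6 and 113 CPM, changed by -0.91 ± 0.14 (adjusted p = 8.41e-05), and Nbn by -1.56 ± 0.23 (adjusted p = 7.5e-05). Trp53bp1, at 0, 2.55 and 5.40 CPM against 10.9 to 17.9 in DZ and LZ, changed by -2.43 ± 0.53 (adjusted p = 0.00165). Atm changed by -1.67 ± 0.51 (adjusted p = 0.0129, 0.095 without mouse 3) and Prkdc by -1.35 ± 0.35 (adjusted p = 0.00491, 0.081 without mouse 2). Fancl changed by -1.39 ± 0.19 (adjusted p = 2.84e-05).

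The other 9 lower genes in PC, Fancm, Blm, Bard1, Mdc1, Topbp1, Rad50, Brca2, Rad51ap1 and Rad54l, changed by -1.31 to -0.69. Of these, Brca2, Blm, Bard1, Mdc1 and Rad54l lost the call when mice were left out in turn, Brca2 without mouse 1 or 2, Blm without mouse 2 or 3, Bard1 and Mdc1 without mouse 1 or 3, and Rad54l without mouse 1, 2 or 3. Brca1 stood at 21.5, 19.1 and 27.0 CPM in PC, within or near its DZ and LZ range of 20.6 to 27.4, with a log2 fold change of -0.13 and a 2 SE interval from -0.52 to 0.26. Xrcc6 stood at 33.0, 43.3 and 68.4 CPM, 0.50 ± 0.21 (adjusted p = 0.0557). Fanca was the 1 higher gene, at 21.5, 28.0 and 27.0 CPM, with 0.78 ± 0.19 (adjusted p = 0.00284, 0.052 without mouse 2).

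Between 60.6% and 70.7% of PC cells were in G1, where the 3 mice had 30, 41 and 20 cells. Among cells in G1, 11 of 37 genes were lower in PC than in germinal center cells and 0 higher, where 25.0% of all genes were lower and 22.7% higher (edgeR). The share of lower genes, 29.7%, was near the background. At an unadjusted p under 0.05, 17 were lower and 0 higher. Over all 9161 genes, 4852 had such a p, in either direction. DESeq2 called 12 lower and 0 higher, where it called 1961 of all genes lower and 2213 higher. The cells called G1 differed in residual cycle RNA, since the summed S-phase list stood at 391 to 703 CPM in PC and at 1380 to 1593 in DZ and LZ, and its part in the result was not tested. The median log2 fold change was -1.12, against -0.17 for all genes. It was -0.93 when the values of the 6 tested genes with 0 UMIs in PC were replaced. Of these, Bard1 was set to the bound that a floor of 3 UMIs over the group allows, and the others, which had no bound, were set to 0. Trp53 stood at 60.1, 61.5 and 95.1 CPM against 179 to 195 in DZ and LZ cells in G1, with a log2 fold change of -1.46 ± 0.13 (adjusted p = 1.1e-09). Parp1, at 152, 129 and 111 CPM, changed by -1.36 ± 0.09 (adjusted p = 1.59e-11), Xrcc1 by -2.01 ± 0.21 (adjusted p = 1.68e-08) and Rad50 by -1.46 ± 0.24 (adjusted p = 2.3e-05). Topbp1 changed by -2.20 ± 0.39 (adjusted p = 5.04e-05), Fancm by -2.78 ± 0.44 (adjusted p = 1.39e-05) and Fancl by -1.75 ± 0.36 (adjusted p = 0.000305). Rif1 changed by -0.93 ± 0.35 (adjusted p = 0.0315), a call lost without mouse 1 or 3.

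Several of the lower genes had few molecules in PC cells in G1, so pooled ratios are given for them with 95% exact binomial intervals that cover counting error only. Fancm had 4 UMIs against 458 in DZ and LZ cells in G1, 6.70-fold lower (interval 2.60 to 24.7), and Topbp1 had 6 against 461, 4.5-fold lower (interval 2.05 to 12.3). Bard1 had 0 UMIs against 109 in DZ and LZ cells in G1, at least 2.13-fold lower, and its call was lost without mouse 1. Blm had 1 against 203, 11.9-fold lower (interval 2.11 to 472), and Trp53bp1 had 3 against 238, 4.64-fold lower (interval 1.57 to 22.7). Brca1, with 6 UMIs, had a log2 fold change of 0.02 with a 2 SE interval from -0.99 to 1.04. Rad54b, Palb2, Fancd2, Fanci, Xrcc3 and Nhej1 also had 0 UMIs in these PC cells. The first 5 did not pass the test, and their levels in DZ and LZ cells in G1 were too low for a bound on the fold.

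**Figure D4:**
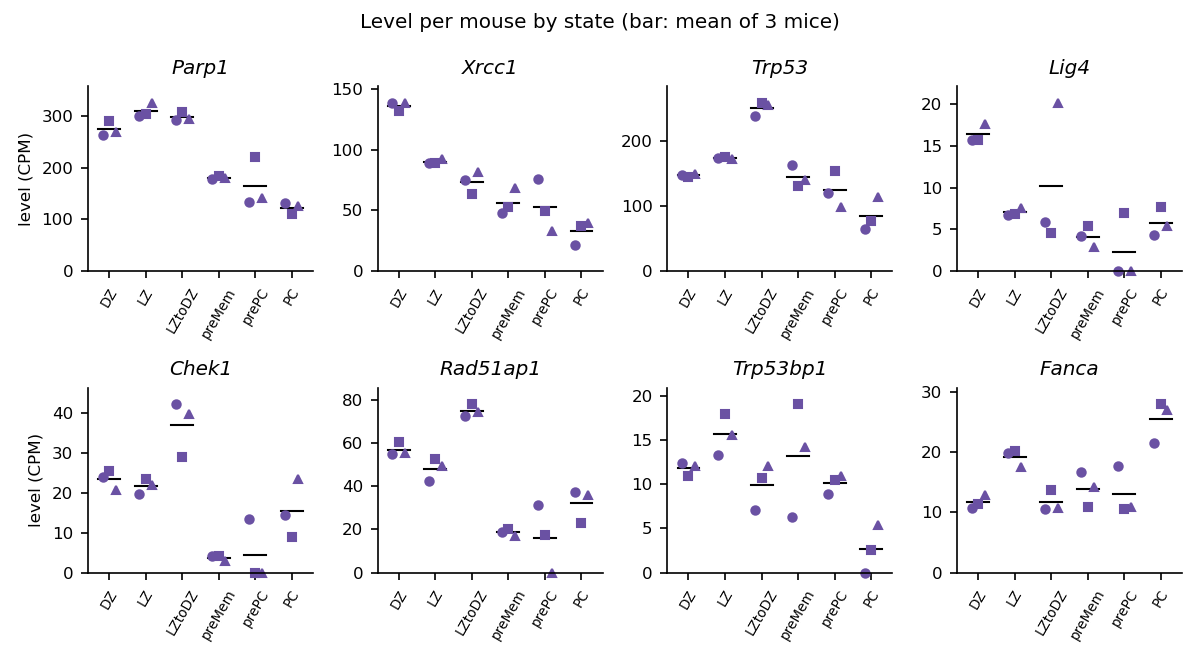
Level in CPM of 8 genes in the 6 states, with 1 symbol per mouse and a bar at the mean. Parp1 in PC lies between 111 and 132, below all values of the other 5 states, and Lig4 in DZ lies between 15.8 and 17.6, above LZ at 6.78 to 7.60.

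The 49 prePC cells were described without a test. Parp1 stood at 133, 221 and 142 CPM, Trp53 at 120, 154 and 98.4 and Xrcc1 at 75.6, 49.0 and 32.8. Rad51ap1 stood at 31.1, 17.5 and 0 CPM and Chek1 at 13.3, 0 and 0. These values rest on 17, 22 and 10 cells.

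Other genes of the same pathways were counted in the same way. For S against G1 the counts below stand beside 22.1% of all genes higher and 20.9% lower. Of 22 further recombination and resection genes, 15 were higher in S than in G1 and 0 lower, with the nuclease Exo1 at 3.24 ± 0.14. Of 7 further Fanconi genes, 4 were higher and 0 lower, with Fancb at 2.01 and the conjugating enzyme Ube2t at 1.93. Of 10 further end-joining and break-signalling genes, 6 were higher and 1 lower, with the Trp53bp1 partner Paxip1 at 1.59, Aplf at 1.12 and the polymerase Polm at -0.34. Of 12 further checkpoint genes, 7 were higher and 0 lower, with the Chek1 mediator Clspn at 3.33 and Timeless at 2.08. In G2M against G1, the histone H2afx, which is marked at breaks, was higher by 2.68 ± 0.15.

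The same lists in the other states gave these counts. In DZ against LZ, 1 of 20 recombination genes was higher and 0 lower, and 2 of 12 checkpoint genes were higher, the phosphatases Cdc25b (1.32 ± 0.15) and Cdc25c (1.21 ± 0.14), where 11.6% of all genes were. At matched phase Cdc25b was called at 1.12 ± 0.06 and Cdc25c was not called. In LZtoDZ against LZ, 10 of 20 recombination genes were higher and 1 lower, where 26.7% of all genes were higher and 22.4% lower. In preMem against germinal center cells, 13 of 20 were lower and 0 higher, where 18.9% of all genes were lower and 19.9% higher, with the helicase Brip1 at -1.54 ± 0.25. In PC, 8 of 20 were lower and 1 higher, where 29.2% of all genes were lower and 27.9% higher.

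Among genes that p53 is known to switch on, 3 of 8 tested were higher in PC than in germinal center cells and 2 lower, where 27.9% of all genes were higher and 29.2% lower. Trp53inp1, a stress protein, rose by 3.58 ± 0.14 (adjusted p = 2e-10) and the cyclin-like Ccng1 by 0.99 ± 0.16, while the cell death gene Bbc3 changed by -1.68 ± 0.53. Among cells in G1 Trp53inp1 was higher in PC by 4.13 ± 0.14 and Mdm2, the p53 ligase, by 0.94 ± 0.16, and Bax, a cell death gene, had a log2 fold change of -0.38 ± 0.10. In LZtoDZ against LZ, 2 of 8 were higher and 3 lower, where 26.7% of all genes were higher and 22.4% lower. Aen, a nuclease, was at 0.99 ± 0.10, Trp53inp1 at -2.62 ± 0.48 and Bbc3 at -1.83 ± 0.42.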

How the data were processed

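The submitters deposited 1 matrix of raw UMI counts for 6000 cells of 3 mice with a cell table that gives mouse, state and phase. Per the submitters' processing notes, Cell Ranger and Seurat were used with mm10 (GRCm38). Their versions, the use of strand in counting and the treatment of doublets were not given in the sources used here, and no doublet caller was run. The 12 libraries in the labels were not tied to cells by any label, so the mouse was the replicate.

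Counts were summed per mouse and state, and per mouse, state and phase, for sums of at least 20 cells, and tested with edgeR 4.0.16 (TMM, filterByExpr, quasi-likelihood test, R 4.3.3), with the mouse as a block and Benjamini-Hochberg adjustment over all genes at 0.05. SE is the absolute log2 fold change over the root of F. TMM factors of the sums averaged 0.623 for PC and 0.402 for PC in G1, against 1.16 and 0.988 for DZ, and CPM are per TMM-scaled total. Germinal center means the average of DZ and LZ. Alternatives were DESeq2 1.42.0, no filter, no mouse block, other cell minimums, no immunoglobulin genes (255 genes), no second barcode series, phases called again with scanpy 1.11.5, leaving out each mouse, and, added after seeing the data, leaving out 74 cells with 2 or more UMIs of other cell types. The fits were run on simulated data for DZ against LZ and for S against G1 only. Those data had a common profile apart from the planted changes, a fixed spread and no mouse effect. They do not bear on the PC and preMem comparisons or on the mouse block.

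Values are in full for up to 5 genes with the largest passing change per comparison and direction and for Brca1, Brca2, Fancd2, Chek1, Xrcc5, Xrcc6, Prkdc, Lig4, Parp1, Trp53, Atm and Atr. The genes and lists were chosen with earlier results of these data known. Sums of the same mouse come from the same animal. Their deviations from the group means correlated with a median r of 0.179 over 108 pairs, against -0.0947 over 216 pairs of different mice, across 3595 genes. Deviations of the mice cancel out within each group, so the value for different mice is not independent of the first. Promoter sequences are from RefSeq.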

Additional observations from a re-analysis of the deposited data

How the results depend on the processing

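Counts of genes that passed the test were recomputed under each alternative. In DZ against LZ the 1 lower gene became 4 with DESeq2, 8 without immunoglobulin genes, 4 without the second barcode series and 1 to 2 without 1 mouse. Over all genes the 953 lower ones became 937 with DESeq2, 1418 without immunoglobulin genes and 1203 without the second barcode series. In LZtoDZ against LZ the 11 higher genes became 7 to 11 without 1 mouse. The 1 lower gene there became 2 with DESeq2, no filter, a minimum of 10 cells, no immunoglobulin genes or no second barcode series, and 0 without each mouse. In preMem against germinal center cells the 1 higher gene became 0 with no filter, without the mouse as replicate block or without the second barcode series, and 0 to 1 without 1 mouse. In PC the 1 higher gene became 2 with DESeq2, no filter, no replicate block, a minimum of 10 cells or no immunoglobulin genes, and 0 to 2 without 1 mouse. Without 1 mouse the 3 genes lower in G2M than in G1 became 0 to 3. Against S, the 3 higher in G2M became 0 to 2 and the 14 lower became 8 to 10. The 9 genes lower in DZ at matched phase became 2 to 6. In preMem against LZ in G1 the 1 higher gene became 0 to 1, and the 2 lower genes became 1 with DESeq2, 5 with no filter, 4 without the second barcode series and 1 to 2 without 1 mouse. The difference of G2M responses between zones was called for 1 gene with DESeq2 and 1 without immunoglobulin genes. Over all genes it was called for 28, and for 226 with DESeq2, 186 without immunoglobulin genes, 202 at a minimum of 50 cells, 134 without the second barcode series, 60 without cells holding RNA of other cell types, 17 with no replicate block, 2 to 4 without 1 mouse and 0 with phases called again. For the S response the main count over all genes was 4, and the others 95, 52, 61 and 28 in the order of the first 4 alternatives, 1 with no replicate block, and 0 without each mouse and with phases called again. The share called higher in DZ was 50.0%, with DESeq2 84.2% and without immunoglobulin genes 75.0%. The cause of these changes was not tested. Without the replicate block no other count of the 38 genes moved by over 1.5 times, and Rad51ap1 in DZ against LZ (adjusted p = 0.053, edgeR), Atr in preMem (0.058) and Rad50 in LZtoDZ (0.053) lost their calls.

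Reversals of direction, 28 in all, were of genes that did not pass the test. Leaving out 1 mouse, the log2 fold change in DZ against LZ ran from -0.038 to 0.31 for Brca2, from -0.049 to 0.18 for Fancd2 and from -0.018 to 0.16 for Xrcc6. At matched phase it ran from -0.14 to 0.17 for Brca1, from -0.32 to 0.14 for Brca2, from -0.11 to 0.068 for Xrcc6 and from -0.022 to 0.28 for Chek1. In LZtoDZ it ran from -0.37 to 1.08 for Lig4, from -0.18 to 0.32 for Atm and from -0.035 to 0.040 for Parp1. For Atm in preMem it ran from -0.19 to 0.65, and for Fancd2 in PC from -0.42 to 0.15. Against LZ in G1, preMem ran from -0.45 to 0.34 for Brca2, from -0.56 to 0.23 for Xrcc6, from -0.84 to 0.0063 for Prkdc and from -0.43 to 0.73 for Atm. In PC in G1 it ran from -0.35 to 0.38 for Brca1 and from -0.34 to 0.18 for Lig4. From G1 to S, Lig4 ran from -0.21 to 0.20, and was -0.0065 with no filter, -0.0096 without immunoglobulin genes, -0.0037 without the second barcode series and -0.17 with phases called again. With no filter, Brca2 in preMem against LZ in G1 was -0.054 and Brca1 in PC in G1 was -0.042. Without cells holding RNA of other cell types, Parp1 in LZtoDZ was 0.013, Trp53 in G2M against G1 was 0.0046 and Brca1 in PC in G1 was -0.15. PC comparisons without the second barcode series were not run, since 117 of the 137 PC cells carry it, and PC in G1 gave no value at a minimum of 50 cells. Genes with few UMIs, such as Nhej1 with 17, were limited by depth.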

Other observations

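Further genes of the break response differed between plasma cells and germinal center cells. H2afx, the histone that is phosphorylated around breaks, had a log2 fold change of -2.06 ± 0.20 (SE, 3 mice) over whole states and of -3.13 ± 0.24 among cells in G1. Rnf168, the ligase that marks chromatin near breaks, changed by -0.998 ± 0.25 and -1.87 ± 0.43. Higher in PC were the ligase Lig3, at 1.11 ± 0.28 and 1.27 ± 0.42, and Mad2l2, a subunit of the shieldin complex that limits resection, at 0.44 ± 0.10 and 0.99 ± 0.17. The phosphatase Cdc25a, which drives entry into S phase, was also higher, by 1.24 ± 0.18 and 1.79 ± 0.31. Mad2l2 was lower in DZ than in LZ at -0.36 ± 0.06 and at matched phase at -0.41 ± 0.06.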
